A study of Mus musculus with 6 samples.

Results

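The comparison sets the 3 replicate 2 arrays of mouse embryonic stem cells against the 3 replicate 1 arrays. They are all 6 arrays of the series, and each set holds 1 array of Fip1 siRNA 2, 1 of Fip1 siRNA 3 and 1 of mock transfection. A replicate 2 array was always compared with the replicate 1 array of its own treatment. The sets were recognised by the titles, in which the arrays of a set share a date-like ending. The labels do not say which step that ending dates, so differences in culture, transfection, RNA extraction and hybridisation between the sets cannot be told apart, and any batch coincides with the set. All cells were E14Tg2a.4, a feeder-independent mouse embryonic stem cell line, kept in M15 medium on gelatin. All were lipofected and harvested 4 days later. The siRNA groups received 1 of 2 siRNAs against Fip1, a subunit of the mRNA cleavage and polyadenylation machinery encoded by Fip1l1. The mock group received the lipofection reagent alone, and no control siRNA was analysed here. Whether the arrays of 1 treatment came from separate cultures is not stated in the labels. The spread behind the p-values is how far the 3 pair differences disagree between treatments, and it may be technical. Each title ending marks only 1 set, so no p-value measures how sets vary when repeated. The calls below describe these 2 sets. The question asked here is how the state of the stem cells varied between the replicate sets, and not what the depletion did.

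Mouse embryonic stem cells grown with serum are a mixed population. Most cells hold the naive pluripotency programme, and a share of them drifts towards the post-implantation epiblast, marked by genes such as Pou3f1 and Fgf5, or towards the primitive endoderm, the extraembryonic layer marked by Gata6, Sox17 and Sox7. Fgf and Nodal signals favour departure from the naive state, and Stat3 and Esrrb hold it. On a bulk array, a change in the share of cells in a state and a change in RNA per cell cannot be told apart.

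The stem cell label was checked on its defining marker. Pou5f1, the POU factor that defines pluripotent cells, lay between 13.27 and 13.37 on the log2 scale on the replicate 2 arrays and between 13.20 and 13.48 on the replicate 1 arrays, where the array medians of all genes lay between 6.08 and 6.12. Each value is the log2 RMA value of 1 probe set for a gene, and a difference of 1 is a 2-fold difference. RMA background correction compresses differences near the floor, which here is about 3, and levels are not compared between genes. No detection calls were used.

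The targeted gene was read first. Fip1l1 had log2 values of 7.79 (siRNA 2), 7.86 (siRNA 3) and 9.74 (mock) on the replicate 2 arrays, against 8.26, 8.39 and 9.65 on the replicate 1 arrays, so every siRNA array was below every mock array. The siRNA pairs differed by -0.47 and -0.53 and the mock pair by 0.10, and the replicate difference of -0.30 did not pass (limma, adjusted p = 0.234). Its part in the replicate differences of other genes was not tested, and the differences of the mock pair, which carries no siRNA, are given beside the main results.

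Of 15267 genes tested, 382 differed between the sets within treatment (2.50%, limma, adjusted p under 0.05). In replicate 2 they were higher for 161 genes (1.05% of those tested) and lower for 221 (1.45%). At least a 2-fold difference was found for 3 genes that rose and 27 that fell, so the largest differences were falls. All 382 had the same sign in the 3 treatment pairs, which selection by their mean favours; among all genes, 22.6% were higher in all 3 pairs and 17.6% lower in all 3. Without adjustment, 2704 genes had a p under 0.05. The replicate set took up 21.3% of the sum of squares over all genes, against 63.4% for treatment and 15.4% for the rest. Calls were rarer near the floor: with the genes divided by level into 4 equal groups, 0.341% of the dimmest passed, and 2.52%, 3.67% and 3.48% of the next. Fewer genes passed without 1 of the pairs: 198 without mock, 228 without siRNA 2 and 314 without siRNA 3. With treatment left out of the model only Gbp2b, Tagln, Myl9 and Gbp2 passed, all lower. The plot of level against difference shows where the genes named below lie.

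**Figure D1:**
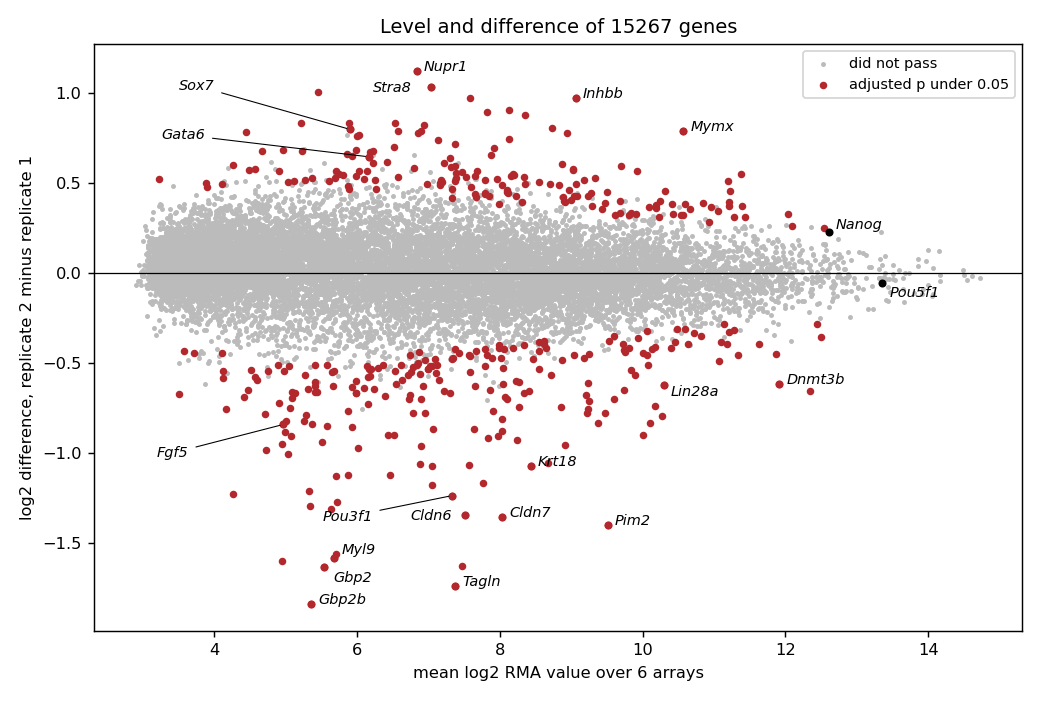
Log2 difference of each of 15267 genes, replicate 2 minus replicate 1 within treatment (vertical axis, log2 units), against its mean log2 RMA value over 6 arrays (horizontal axis). Red points passed adjusted p under 0.05; the largest falls, led by Gbp2b and Tagln, reach further from 0 than the largest rises, while Nanog and Pou5f1 (black) did not pass.

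Genes of the formative epiblast, the state entered when naive cells begin to leave self-renewal, were lower in replicate 2. Of 15 measured genes of this list 8 fell, none rose and 7 missed the threshold, beside 1.45% that fell among all genes tested. The 8 include Pou3f1 and Fgf5, which were chosen as markers beforehand. Like all 29 lists, this one was drawn up with earlier results of these data known. Counts in the lists therefore describe these arrays and are not independent support. The median difference of the list was -0.47, against 0.02 for all genes, and it was -0.58 in the mock pair alone. Pou3f1, a POU factor of the post-implantation epiblast and a chosen marker, had log2 values of 6.66, 6.97 and 6.52 in replicate 2 (siRNA 2, siRNA 3 and mock), against 7.51, 8.77 and 7.59 in replicate 1. The sets did not overlap for Pou3f1, and the siRNA 3 array of replicate 1 was the highest. Here and below, the share of all genes without overlap is not given. Selection of genes by their call or their size of difference favours a lack of overlap. It fell by 1.24 (SE 0.16, 2.36-fold, adjusted p = 0.00658).

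Fgf5, a growth factor of the early post-implantation epiblast, had values of 4.58, 4.68 and 4.39 in replicate 2, against 5.64, 5.56 and 4.98 in replicate 1, again in the order siRNA 2, siRNA 3 and mock, which is kept below. Its sets did not overlap, and it fell by 0.84 (SE 0.12, adjusted p = 0.0099), with a smaller difference of -0.59 in the mock pair. Pim2, a serine/threonine kinase, had values of 8.50, 8.77 and 9.15 in replicate 2, against 9.74, 10.51 and 10.38 in replicate 1. The fall of Pim2 by 1.40 (SE 0.11, adjusted p = 0.000437) was the largest of the list. The zinc finger factor Sall2 fell by 0.96, the de novo DNA methyltransferase Dnmt3b by 0.62, the ligand Wnt8a by 0.66, the Wnt effector Lef1 by 0.55 and the Wnt modulator Sfrp2 by 0.42 (adjusted p = 0.00138 for Dnmt3b to 0.0455 for Sfrp2). Dnmt3b had values of 11.42, 11.56 and 11.84 in replicate 2, against 12.09, 12.21 and 12.37 in replicate 1, a narrow spread within each set. Otx2, a homeodomain factor of the same transition, had a difference of -0.32 (adjusted p = 0.262), with -0.80 in the mock pair. Zic2 (-0.47, adjusted p = 0.0695) and Dnmt3a (-0.03, adjusted p = 0.892) did not pass either. Without the mock pair 5 genes of the list fell, without the siRNA 3 pair 6 and without the siRNA 2 pair 7.

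**Figure D2:**
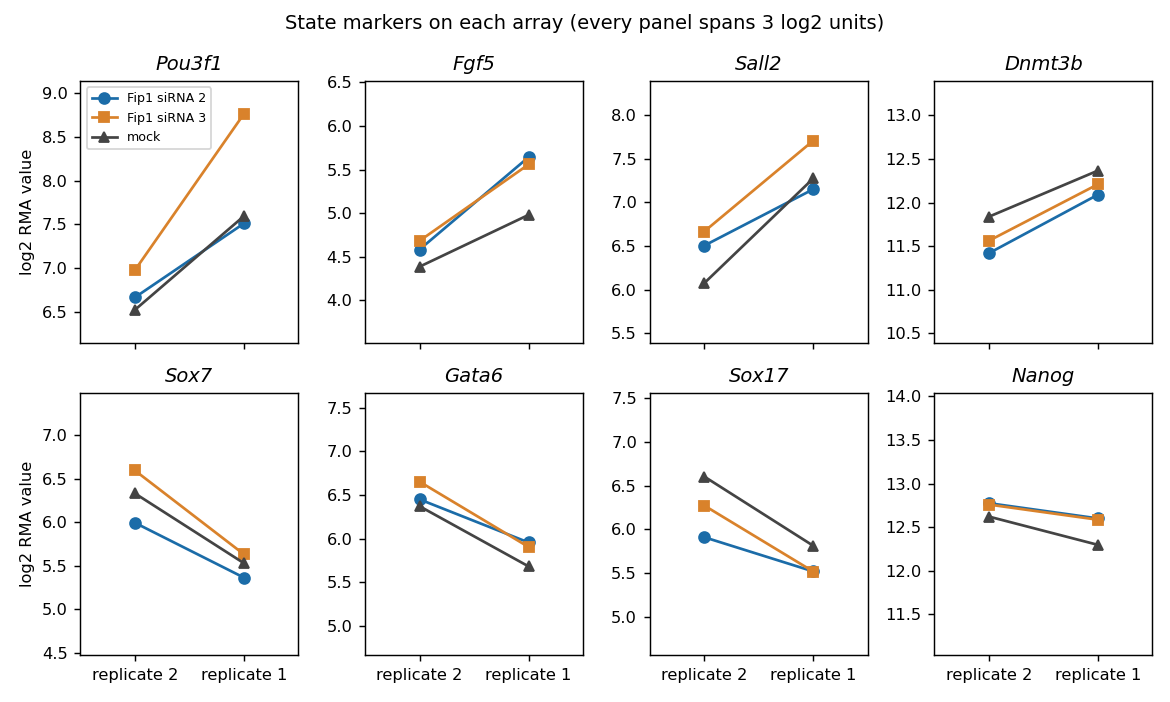
Log2 RMA value of 8 state markers on each of the 6 arrays (vertical axis, log2 units, the same span in every panel), with replicate 2 left and replicate 1 right and a line joining the arrays of 1 treatment. Pou3f1, Fgf5, Sall2 and Dnmt3b were lower in replicate 2 in all 3 pairs, Sox7, Gata6 and Sox17 were higher, and Nanog, at a difference of 0.22, did not pass.

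Most genes that hold the pluripotent state did not pass the threshold. Of 14 core pluripotency genes 1 fell and none rose, and of 19 naive genes 1 fell and none rose. Of all genes tested 1.45% fell and 1.05% rose. The median difference was -0.08 for the core list and 0.14 for the naive list. In all 3 pairs 8 naive genes were higher and 1 lower, and 1 core gene was higher and 5 lower. Among all genes 22.6% were higher and 17.6% lower in all 3 pairs. Nanog, a homeodomain factor of the naive state, had values of 12.77, 12.76 and 12.62 in replicate 2, against 12.60, 12.59 and 12.30 in replicate 1. It was higher in each pair, with a difference of 0.22 (SE 0.06, adjusted p = 0.0813), and passed only when genes under the median level were left out before adjustment (adjusted p = 0.0441). Pou5f1 differed by -0.06, Sox2 by 0.08, Klf4 by 0.12, Zfp42 by 0.05 and Esrrb by 0.26, and none passed (adjusted p = 0.152 for Esrrb, higher for the rest). Among naive genes Pecam1 (0.49, adjusted p = 0.119), Prdm14 (0.45, adjusted p = 0.071), Tfcp2l1 (0.37, adjusted p = 0.0687) and Tbx3 (0.35, adjusted p = 0.106) had larger differences that missed the threshold. Their mock pairs differed by 0.14, 0.16, 0.12 and 0.09, less than the siRNA pairs did. Prdm14 (adjusted p = 0.039) and Tfcp2l1 (adjusted p = 0.0395) passed without the mock pair. The genes that fell were Lin28a, an RNA-binding protein that blocks let-7 maturation, by 0.62 (SE 0.10, adjusted p = 0.0186), and the zinc finger factor Zscan10 by 0.45 (SE 0.09, adjusted p = 0.0414). The Zscan10 call ended without the siRNA 3 pair (adjusted p = 0.121) or the mock pair (adjusted p = 0.131), and that of Lin28a without the mock pair (adjusted p = 0.0549).

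Some transcription factors of the primitive endoderm were higher in replicate 2. Of 7 measured factors 3 rose and none fell, where 1.05% of all genes rose. Sox7 and Gata6 among them were chosen markers, and the list was drawn up with earlier results known. The count therefore describes the list and is not independent support. Sox7, an SRY-box factor, had values of 5.99, 6.59 and 6.33 in replicate 2, against 5.37, 5.63 and 5.53 in replicate 1. It rose by 0.80 (SE 0.11, 1.74-fold, adjusted p = 0.00909), and its sets did not overlap. Gata6, the GATA factor that sets the endoderm fate, had values of 6.45, 6.65 and 6.37 in replicate 2, against 5.96, 5.91 and 5.68 in replicate 1. It rose by 0.64 (SE 0.11, adjusted p = 0.017), again with no overlap. Sox17 rose by 0.65 (SE 0.12, adjusted p = 0.0264), with 6.60 in mock cells of replicate 2 as its highest value.

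Gata4 (0.01), Hnf4a (0.20) and Foxa2 (0.16) did not pass and lay at 4.20 to 5.21 on every array. That range is low, but the replicate 2 values of Fgf5 lie in it too. All 7 measured factors had a mean level above the 25th percentile of all genes. Foxa1 had values of 7.57, 7.34 and 4.68 in replicate 2, against 6.90, 6.60 and 4.95 in replicate 1: the siRNA pairs were higher, the mock pair lower, and the difference of 0.38 did not pass (adjusted p = 0.313). Without the mock pair Foxa1 passed (adjusted p = 0.025), whereas Gata6 (adjusted p = 0.0589) and Sox17 (adjusted p = 0.0918) did not. Downstream endoderm genes mostly stayed below the threshold. The calls given next stand beside 1.05% of all genes tested that rose and 1.45% that fell, so they are not rarer than among all genes. Of 13 visceral endoderm genes Srgn, a secreted proteoglycan core, rose by 0.90 and Cubn, an endocytic receptor, by 0.78, both most in the mock pair (1.42 and 1.33), and both calls ended without that pair (adjusted p = 0.0724 and 0.0844). Ttr and Afp, secreted products of mature visceral endoderm, lay at 3.13 to 3.65 on every array. Of 12 genes of the parietal endoderm and its matrix the laminin chain Lama1 rose by 0.43 (adjusted p = 0.0451), a call lost without any of the 3 pairs (adjusted p = 0.0505 to 0.117). Fst, an activin-binding inhibitor, fell by 0.90 (SE 0.12, adjusted p = 0.00646). The collagen chains Col4a1 (0.34) and Col4a2 (0.29) did not pass.

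Epithelial genes and genes of the actin cytoskeleton were among the largest falls. Tagln, an actin-binding protein of contractile cells, had values of 6.66, 6.51 and 6.36 in replicate 2, against 8.07, 8.36 and 8.32 in replicate 1. It fell by 1.74 (SE 0.12, 3.35-fold, adjusted p = 0.000307), with a tight spread inside each set. Myl9, the regulatory light chain of non-muscle and smooth muscle myosin, fell by 1.59 (SE 0.11) and Thbs1, a matrix glycoprotein, by 1.30 (SE 0.12). The claudins Cldn7 (by 1.36, SE 0.09) and Cldn6 (by 1.34, SE 0.09), which seal tight junctions, also fell. Cldn7 had values of 7.13, 7.47 and 7.46 in replicate 2, against 8.50, 8.96 and 8.67 in replicate 1. The keratin pair of simple epithelia, Krt8 and Krt18, fell by 0.96 (SE 0.14, adjusted p = 0.00985) and 1.07 (SE 0.10, adjusted p = 0.00105). These keratins were in the trophectoderm list, of which 2 of 17 measured genes fell, beside 1.45% of all genes tested. The transcription factors of that list, Cdx2 (-0.29), Elf5 (-0.03) and Gata3 (-0.06), did not pass.

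Further genes of this kind were picked after their values were seen. Esrp1, a splicing regulator of epithelial cells, had values of 8.0, 8.12 and 8.32 in replicate 2, against 8.97, 9.25 and 9.40 in replicate 1, and fell by 1.06 (SE 0.08). The tight junction proteins Ocln (by 0.68) and Marveld2 (by 0.72) and the adhesion molecule Epcam (by 0.39) fell as well. Of 19 claudins measured only Cldn6 and Cldn7 fell, and 3 of 42 keratins, Krt8, Krt18 and Krt19, beside 1.45% of all genes tested. Among actin genes Zyx (by 1.07), Cald1 (by 0.92), Tpm1 (by 0.84), Cnn2 (by 0.78) and Tpm4 (by 0.57) fell. So did Srf (by 0.45, adjusted p = 0.0441), a transcription factor of actin genes, whose part in these falls was not tested. No count was made of all actin genes, and Cotl1, an actin-binding protein of the chromosome 8 segment described below, rose by 0.58. Ccn2, a matricellular protein induced by Yap, fell by 0.79, most in the mock pair (-1.25).

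Tagln and Acta2 (by 0.60, adjusted p = 0.0317) stood in the fibroblast list, of which 2 of 15 genes fell and none rose, beside 1.45% of all genes that fell. The call of Acta2 ended without the siRNA 2 pair (adjusted p = 0.105) or the siRNA 3 pair (adjusted p = 0.0505). The defining fibroblast genes Col1a1, Col1a2, Col3a1, Postn, Lum and Prrx1 lay at 3.23 to 4.12 on all 6 arrays, near the floor, and differed by -0.01 to 0.17. The summed linear signal of the list lay between 3894 and 4630 in replicate 2 and between 4003 and 4548 in replicate 1.

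The gene with the largest fall was Gbp2b, an interferon-inducible guanylate-binding GTPase. It had values of 4.24, 4.54 and 4.51 in replicate 2, against 6.30, 6.27 and 6.26 in replicate 1, and fell by 1.84 (SE 0.11, 3.58-fold, adjusted p = 0.000307). Its neighbour and close relative Gbp2 had values of 4.41, 4.98 and 4.78 in replicate 2, against 6.36, 6.50 and 6.22 in replicate 1, and fell by 1.64 (SE 0.12). Probe positions were not used here, so signal shared between these near-identical genes cannot be separated. Irgm1, an immunity-related GTPase, fell by 1.27 (SE 0.16, adjusted p = 0.00646), most in the mock pair (-1.82). For all 3 genes the sets did not overlap, which their selection as large falls favours. In these families, picked after their values were seen, 2 of 5 measured guanylate-binding genes and 1 of 3 immunity-related GTPases fell. Of all genes tested 1.45% fell. The median of the guanylate-binding genes was -0.46. Of the 5 genes 3 lay above the 25th percentile of level, as did 2 of the 3 immunity-related GTPases. Gbp3 (-0.46), Gbp7 (-0.06) and Igtp (0.06) did not pass. None of 10 measured genes of the interferon response list passed in either direction, beside 2.50% of all genes tested. Ifit1, Oasl2 and Usp18 lay at 3.29 to 3.82 on every array.

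Promoters of these 3 GTPases are shown because all were among the 15 largest falls and share a motif. A promoter was available for 12273 of the genes tested (RefSeq, GRCm38.p6), and the 250 bases before each start were searched on both strands. The interferon-stimulated response element, searched as 2 copies of GAAA with 2 bases between them, was found in 4 of the 11 promoters available for the 15 largest falls (Gbp2b, Gbp2, Irgm1 and Cldn7), in 2 of the 10 available for the 15 largest rises (Inhbb and Srgn), and in 3.06% of all promoters searched. The windows of 60 bases below run 5′ to 3′ on the strand of the gene with the match in capitals, with TTTC in place of GAAA where it lies on the other strand. They are chr3:142594685-142594744 (plus strand) for Gbp2b, chr3:142620579-142620638 (plus strand) for Gbp2 and chr11:48871421-48871480 (minus strand) for Irgm1. In Irgm1 the capitals cover 2 overlapping matches. A match describes the letters only.
Gbp2b: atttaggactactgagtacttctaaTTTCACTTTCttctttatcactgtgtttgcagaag
Gbp2: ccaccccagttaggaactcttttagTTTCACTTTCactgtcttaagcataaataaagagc
Irgm1: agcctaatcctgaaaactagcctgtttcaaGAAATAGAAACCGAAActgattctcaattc

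The CArG box, the site bound by Srf, was found in 1 of the 11 promoters of the largest falls, that of Myl9, and in 1.47% of all promoters searched. The Myl9 window is chr2:156775278-156775337 (plus strand), with the box in capitals.
Myl9: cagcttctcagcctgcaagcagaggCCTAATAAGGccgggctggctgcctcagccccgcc

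The remaining large falls had mixed roles. Fndc3c1, an X-linked fibronectin type III domain gene, fell by 1.63 and Calcr, the calcitonin receptor, by 1.60. The membrane protein Tmem54 fell by 1.56, Sertad4 by 1.31 and the milk protein gene Csn3 by 1.23, the last from values of at most 5.09. Prom1, a membrane protein of stem and epithelial cells named after its values were seen, fell by 1.17 (SE 0.09). Also picked by their values, the neurofilament genes Nefl (by 0.90), Nefm (by 0.94) and Ina (by 0.76) fell. So did the carbonic anhydrases Car2 (by 0.66), Car3 (by 0.87) and Car4 (by 1.06), likewise picked. They were the 3 of 16 measured carbonic anhydrases that fell, beside 1.45% of all genes tested.

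Genes of the integrated stress response, which the factor Atf4 drives when amino acids run short or unfolded proteins collect, were higher in replicate 2 in part. Of 16 measured genes of the stress list 5 rose and 1 fell, beside 1.05% and 1.45% of all genes tested, while 10 missed the threshold. The median difference of the list was 0.26. Nupr1, a stress-induced chromatin protein outside that list, showed the largest rise of all genes. It had values of 6.95, 7.11 and 8.14 in replicate 2, against 5.73, 5.88 and 7.21 in replicate 1, and rose by 1.12 (SE 0.10, 2.18-fold, adjusted p = 0.00107). The sets overlap because Nupr1 was higher in mock than in siRNA cells of either set, while each pair rose by 0.93 to 1.23.

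Atf4 itself had values of 10.55, 10.64 and 11.16 in replicate 2, against 10.10, 10.30 and 10.80 in replicate 1, a rise of 0.38 (SE 0.06, adjusted p = 0.0202). Chac1, a glutathione-degrading enzyme, rose by 0.78 (SE 0.15), the pseudokinase Trib3 by 0.71 (SE 0.11), the ER-associated degradation factor Herpud1 by 0.53 (SE 0.09) and the serine synthesis enzyme Psat1 by 0.40 (SE 0.07). Chac1 was lower in siRNA than in mock cells, with 6.62, 7.07 and 8.06 in replicate 2, against 5.95, 5.80 and 7.66 in replicate 1. Ddit3, a stress-induced member of the C/EBP family, had a difference of 0.61 that did not pass (adjusted p = 0.109), with 1.15 in the mock pair. Asns (0.26), Ddit4 (0.27) and Xbp1 (0.30) did not pass, and the ER chaperone Hspa5 (-0.15) lay on the other side of 0. Sesn2, which Atf4 and p53 both induce, fell by 0.74 (SE 0.13, adjusted p = 0.0234). Jdp2, an AP-1 repressor, rose by 0.83 (SE 0.10), and Kdelr3, which returns proteins to the ER, by 0.97 (SE 0.13). Without the mock pair only 2 genes of the list rose, and Atf4 (adjusted p = 0.0724), Herpud1 (adjusted p = 0.077), Psat1 (adjusted p = 0.122) and Sesn2 (adjusted p = 0.0677) lost their calls. Chac1 lost its call without the siRNA 2 pair (adjusted p = 0.0745) or the siRNA 3 pair (adjusted p = 0.05), and Atf4 also without the siRNA 2 pair (adjusted p = 0.0602). Without a variance trend in the model 2 genes of the list rose.

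Amino acid genes picked after their values were seen also rose: Pck2 by 0.76, Mthfd2 by 0.57, Aars by 0.51, Aldh18a1 by 0.45 and Psph by 0.40. Aars and Herpud1 lie in the chromosome 8 segment described below.

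Promoter windows are shown for stress genes that rose and hold the composite site of C/EBP and ATF factors. Its core TGATGCAA, searched on both strands as above, was found in 2 of the 10 promoters of the largest rises (Nupr1 and Jdp2), in 4 of 16 of the stress list (Chac1, Herpud1, Atf3 and Slc7a11) and in none of the 11 of the largest falls. It was found in 0.725% of all promoters searched. Of the stress genes with the core, Atf3 differed by 0.03 and Slc7a11 by 0.15, and neither passed. Trib3, Psat1 and Atf4 rose without the core in the bases searched. The stress list was drawn up from genes of this response, so its share is not independent support. A match describes the letters only. The windows are chr7:126625547-126625606 (minus strand) for Nupr1, chr12:85599356-85599415 (plus strand) for Jdp2, chr2:119351023-119351082 (plus strand) for Chac1 and chr8:94386291-94386350 (plus strand) for Herpud1. Capitals mark the core, which reads TTGCATCA where it lies on the other strand.
Nupr1: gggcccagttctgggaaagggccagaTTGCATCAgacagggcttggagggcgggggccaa
Jdp2: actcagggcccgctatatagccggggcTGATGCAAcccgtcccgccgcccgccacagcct
Chac1: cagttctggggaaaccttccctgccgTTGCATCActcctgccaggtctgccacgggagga
Herpud1: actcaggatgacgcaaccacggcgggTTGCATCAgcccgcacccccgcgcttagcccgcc

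Most glycolysis and hypoxia genes did not pass. Of 13 measured genes 3 rose and none fell, where 1.05% of all genes rose: Egln3, the oxygen-sensing prolyl hydroxylase (by 0.74, adjusted p = 0.0162), Vegfa (by 0.46, adjusted p = 0.0495) and the phosphofructokinase Pfkp (by 0.37, adjusted p = 0.0451). All 3 calls ended without the mock pair (adjusted p = 0.067 to 0.173) and without the siRNA 2 pair (adjusted p = 0.0519 to 0.122), and those of Vegfa and Pfkp also without the siRNA 3 pair (adjusted p = 0.187 and 0.105). Slc2a1 (0.16), Aldoa (0.04), Pkm (-0.20) and Pdk1 (-0.07) did not pass. The heat shock list had no calls among 7 genes, beside 2.50% of all genes tested. Sqle, the squalene epoxidase (by 0.41, limma, adjusted p = 0.0218), was the only one of 10 sterol synthesis genes to fall, beside 1.45% of all genes. That call ended without the mock pair (adjusted p = 0.095).

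Most listed signalling genes of each pathway did not pass, and those that did mostly fell. Of all genes tested 2.50% passed, the share to set beside the list counts here and in the next paragraph. Sp5, a direct target of Wnt, had values of 6.35, 6.52 and 6.32 in replicate 2, against 7.14, 7.11 and 6.98 in replicate 1, and fell by 0.68 (SE 0.10, adjusted p = 0.0107). With Lef1 and Ccnd1 (by 0.31, adjusted p = 0.0499) it made 3 falls among 10 Wnt targets, beside 1.45% of all genes tested. Lef1 is counted in the formative epiblast list as well, and Ccnd1 in the cell cycle list. Axin2, the most general of the Wnt targets, differed by 0.03. The ERK phosphatase Dusp6, a feedback inhibitor induced by Fgf signalling, had values of 10.46, 10.58 and 10.26 in replicate 2, against 10.82, 11.08 and 10.60 in replicate 1. It fell by 0.40 (SE 0.07, adjusted p = 0.0184) and was the only one of 8 ERK feedback genes to pass.

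Lefty1, the Nodal antagonist and target, fell by 0.35 (adjusted p = 0.0377), its relative Lefty2 differed by -0.32 (adjusted p = 0.0889) and Nodal itself by -0.03. Id2, a helix-loop-helix target of BMP, fell by 0.51 (SE 0.07, adjusted p = 0.00703), while Id1 (-0.26) and Id3 (-0.18) did not pass. Myc fell by 0.35 (adjusted p = 0.0452) among 11 immediate early genes. None of 10 genes of the LIF and Stat3 list passed. Socs3, the feedback inhibitor of that pathway, had 9.70, 9.84 and 10.31 in replicate 2, against 9.50, 9.50 and 9.65 in replicate 1, a difference of 0.40 (adjusted p = 0.0629) that passed without either siRNA pair (adjusted p = 0.0499 and 0.0463). Inhbb, the beta B subunit of activin and inhibin, was among the largest rises, with 9.88, 9.76 and 9.0 in replicate 2, against 8.82, 8.65 and 8.25 in replicate 1 (by 0.97, SE 0.09, adjusted p = 0.00107). The calls of Lef1, Ccnd1 and Myc ended without any 1 of the pairs, those of Dusp6 without the siRNA 3 pair or the mock pair, and that of Lefty1 without the siRNA 2 pair or the mock pair (adjusted p = 0.0551 to 0.198).

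The other large rises had mixed roles. Mymx, a small membrane protein of muscle cell fusion, had values of 11.06, 11.22 and 10.62 in replicate 2, against 10.45, 10.29 and 9.80 in replicate 1, and rose by 0.79 (SE 0.08, adjusted p = 0.00143). Camk2n1, an inhibitor of the calcium kinase CaMKII, rose by 0.82, the heme-binding protein Hebp1 by 0.80 and the alpha tubulin gene Tuba3a by 0.88, the last most in the mock pair (1.30). Bhmt, an enzyme of methionine synthesis, rose by 1.00 (SE 0.15), the adhesion receptor Adgrd1 by 0.83 (SE 0.15) and Tex14, which forms germ cell bridges, by 0.83 (SE 0.11). The Bhmt call ended without the siRNA 2 pair (adjusted p = 0.0554) and that of Adgrd1 without the siRNA 2 pair or the mock pair (adjusted p = 0.0925 and 0.0926).

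Most germline and DNA methylation genes did not pass. Stra8, which retinoic acid induces at the entry into meiosis, had values of 8.10, 7.38 and 7.17 in replicate 2, against 7.01, 5.98 and 6.56 in replicate 1. It rose by 1.03 (SE 0.14, 2.05-fold, adjusted p = 0.00879) with no overlap. The retinoic acid binding protein Crabp2 fell by 0.48 (adjusted p = 0.0459), a call lost without any of the pairs (adjusted p = 0.056 to 0.192), and Cyp26a1 (-0.05) and Rarb (-0.04) did not pass. Dazl, a germ cell RNA-binding protein, rose by 0.54 (limma, adjusted p = 0.0331). It was the only call among 10 germline genes, beside 2.50% of all genes tested. Dazl lost its call without either siRNA pair (adjusted p = 0.104 and 0.0604). Dnmt3l, the cofactor of the de novo methyltransferases, fell by 0.46 (adjusted p = 0.0266), a call that ended without the siRNA 2 pair (adjusted p = 0.0621). With Dnmt3b, counted above in the formative epiblast list, it made 2 falls among 7 DNA methylation genes, beside 1.45% of all genes tested. Dnmt1, Uhrf1, Tet2 and Tet3 did not pass. Meg3, the noncoding RNA of the imprinted Dlk1 locus, fell by 0.78 (SE 0.09, adjusted p = 0.00384), and Mirg, a noncoding RNA of the same locus named after its values were seen, by 1.18 (SE 0.10). Meg3 was the only one of 12 imprinted genes to pass, beside 2.50% of all genes tested, and Dlk1 differed by -0.10.

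Lists of the embryonic germ layers held no calls. None of 16 streak and mesoderm genes and none of 15 neuroectoderm genes passed, beside 2.50% of all genes tested. With so small a share, lists of this length say little about the germ layers. Eomes (-0.02), Mixl1 (-0.02), Nes (-0.44, limma, adjusted p = 0.0609) and Pax6 (-0.20) were among the genes that did not pass. Of the markers of the 2-cell-like state only Zfp352 was measured, and it did not pass (-0.13). In the cell cycle list Ccnd1 was the 1 call among 18 genes, and in the p53 list Sesn2 was the 1 call among 16. The share of all genes is again 2.50%. The plot of all 29 lists shows that most medians lie close to that of all genes.

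**Figure D3:**
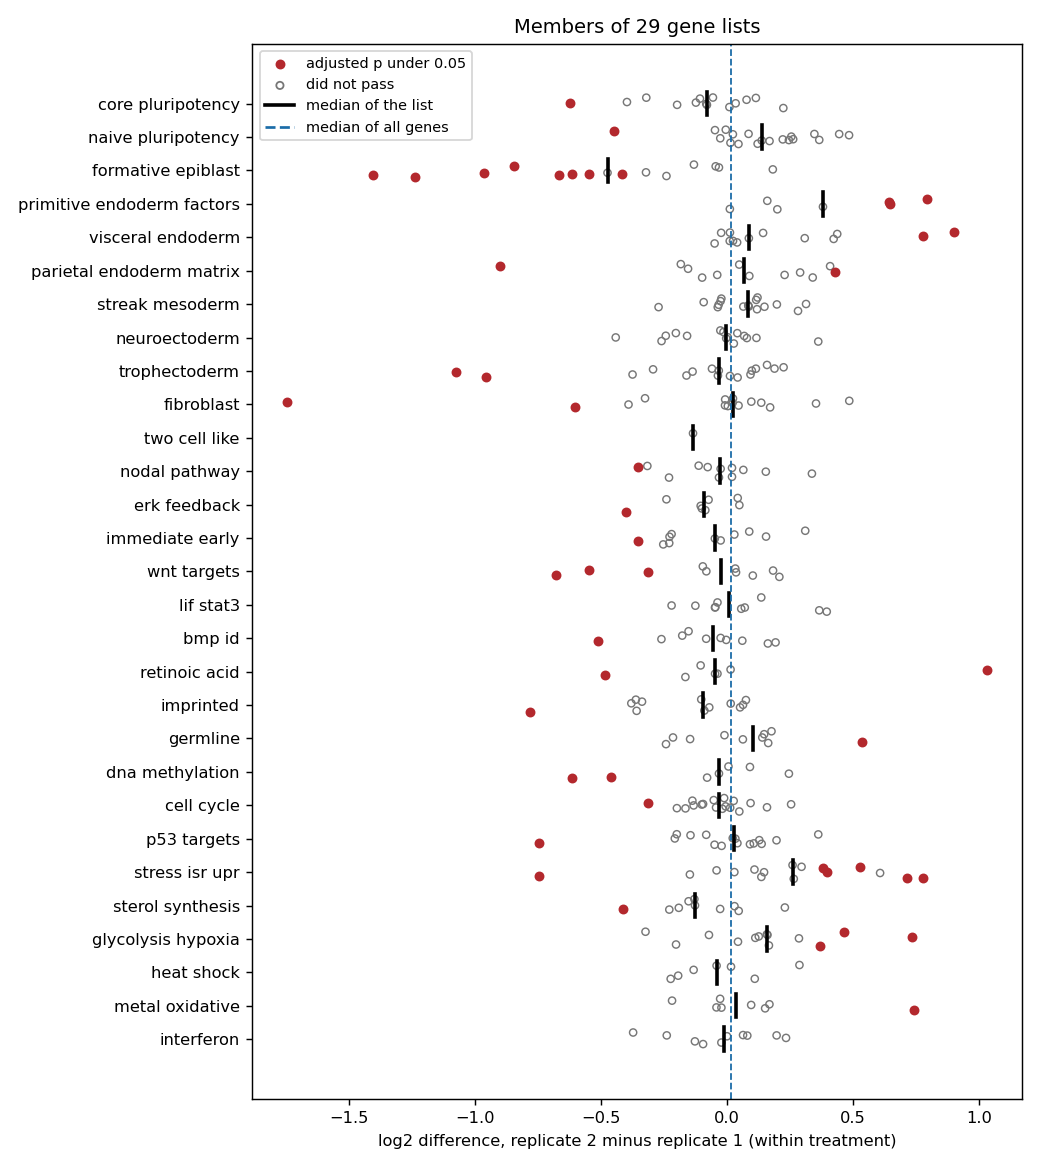
Log2 difference, replicate 2 minus replicate 1 within treatment, of every measured member of 29 gene lists (horizontal axis, log2 units), with members past adjusted p under 0.05 filled and the median of each list as a bar. The formative epiblast median lies at -0.47 and the primitive endoderm factor median at 0.38; the dashed line is the median of all genes, 0.02.

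The rises also had a place in the genome. Genes above the median level were put in order along each chromosome by the mouse gene table (assembly GRCm38.p6, used for gene order only) and divided into 190 runs of about 40 neighbours. The last 5 runs of chromosome 8, from Orc6 to the final gene Itgb1, had median differences of 0.15 to 0.27, and the runs elsewhere had medians of -0.14 to 0.06. This segment was chosen after its values were seen and has no test. Of its 186 genes above the median level, 168 had a positive difference (90.3%), against 45.4% of such genes elsewhere. Their median was 0.22, a 1.17-fold difference, and the medians of the pairs were 0.23 (siRNA 2), 0.21 (siRNA 3) and 0.20 (mock). The lowest median of a run in a single pair was 0.13. The same genes had a median of 0.02 for siRNA minus mock.

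Of all 342 genes measured in the segment 33 rose (9.65%) and 1, Kcnk1, fell, and 128 genes rose elsewhere (0.858%). Among them, picked for a spread of roles, were Nae1 (by 0.55), a subunit of the NEDD8-activating enzyme, Coq9 (by 0.51), which serves ubiquinone synthesis, Cotl1 (by 0.58), an actin-binding protein, Banp (by 0.55), a nuclear matrix protein, and Bbs2 (by 0.49), a subunit of the ciliary BBSome. Nae1 had values of 11.70, 11.82 and 11.44 in replicate 2, against 11.30, 11.15 and 10.86 in replicate 1. Cdyl2, a chromodomain protein and 1 of the 15 largest rises (by 0.90, SE 0.11, adjusted p = 0.00646), lies in the segment. So does Nqo1, a quinone reductase (by 0.74, limma, adjusted p = 0.0317). It was the only call among 8 metal and oxidative stress genes, beside 2.50% of all genes tested. The metallothioneins Mt1 (0.10) and Mt2 (0.15) lie there too and did not pass. The Nqo1 call ended without the siRNA 2 pair (adjusted p = 0.0879).

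The 120 genes above the median level in the middle of chromosome 8, just before the segment, had a median of -0.10. This stretch was also chosen by its values, and it is not particular to chromosome 8. Single runs on chromosomes 10 and 11 had medians of -0.14 and -0.11. With the genes of the segment left out of the test, the stress list kept 4 rises and the formative epiblast and primitive endoderm counts stayed at 8 and 3. Herpud1 is the only stress list gene in the segment. No measured gene of the formative epiblast or primitive endoderm factor list lies in it. Apart from Herpud1, these counts could therefore change only through the adjustment of p-values. Gain of chromosome 8 is a known change in cultured mouse embryonic stem cells. Copy number was not tested here, and a higher level in replicate 2 and a lower level in replicate 1 cannot be told apart.

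**Figure D4:**
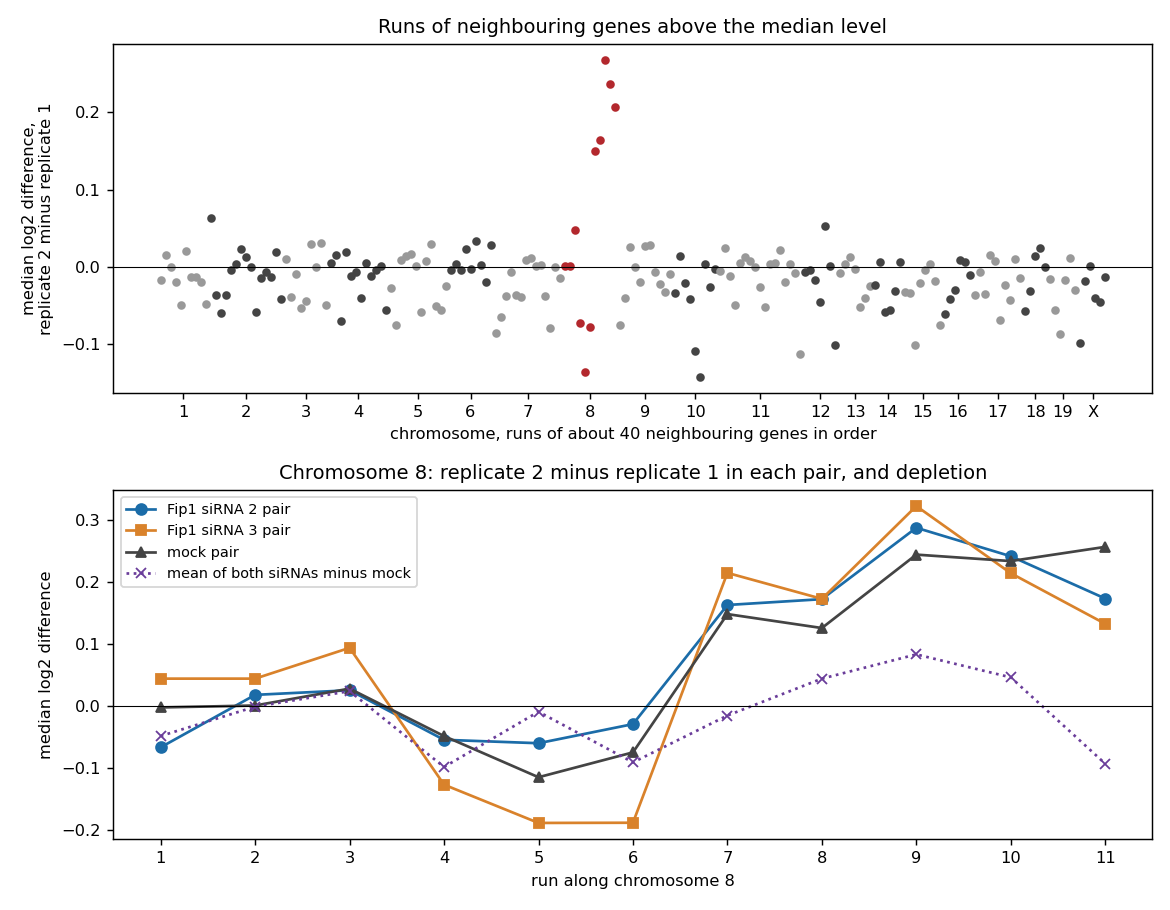
Top, median log2 difference (replicate 2 minus replicate 1) of each run of about 40 neighbouring genes above the median level, in genome order, with chromosome 8 in red: its last 5 runs lie at 0.15 to 0.27, above every run elsewhere. Bottom, the medians of the runs of chromosome 8 in each treatment pair and, dotted, the mean of both siRNAs minus mock, which lies between -0.09 and 0.08 in the last 5 runs.

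In mock cells alone, with no replicate, the differences were -1.07 for Pou3f1, -0.59 for Fgf5, 0.80 for Sox7 and 0.69 for Gata6, of the same sign as in the siRNA pairs. No gene passed for a difference between the siRNA pairs and the mock pair (0%, limma interaction, 985 genes at an unadjusted p under 0.05). That test has 1 residual degree of freedom, and 59 genes passed after median centring of the arrays.

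In the same model 3080 genes (20.2%) differed between siRNA and mock cells, 1287 higher (8.43%) and 1793 lower (11.7%). The depletion and replicate contrasts use the same 6 arrays, so only values side by side are given. The depletion differences of the 4 chosen markers were 0.42 for Pou3f1 (adjusted p = 0.119), 0.43 for Fgf5 (adjusted p = 0.0402), -0.03 for Sox7 (adjusted p = 0.88) and 0.21 for Gata6 (adjusted p = 0.229). That of Nanog was 0.22 (adjusted p = 0.0312), beside 0.22 for the replicate set, and that of Foxa1 was 2.29 (adjusted p = 0.000135), beside 0.38. Whether depletion and replicate differences differ in size was not tested. Stress genes went the other way for depletion, with 2 of 16 higher and 9 lower in siRNA cells and a median of -0.41.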

How the data were processed

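Biotin-labelled total RNA of 6 samples was hybridised to Affymetrix whole mouse genome arrays, 1 per sample, per the labels' protocols. RMA, which corrects background, normalizes arrays to each other and summarises probes, gave the deposited log2 values, per the submitters' processing notes. The version of RMA and the array's probe set definition are not named in the labels. All 6 columns were mapped to samples by title. Of 16556 probe sets, 15270 have 1 gene in the platform annotation, 0 have several and 1286 are unnamed; the brighter of 2 probe sets was kept for 3 genes, leaving 15267 genes. No filter or further scaling was applied.

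A linear model with treatment and replicate set was fitted with limma 3.58.1 in R 4.3.3, with empirical Bayes moderation and a variance trend over the mean level (2 residual degrees of freedom). P-values are two-sided and adjusted by Benjamini-Hochberg over 15267 genes; the threshold is 0.05. Replicate set is the tested factor, and its pairing across treatments comes from the shared replicate numbers and title endings. The interaction, siRNA pairs minus mock pair, has 1 residual degree of freedom. An exact sign-flip test of 3 pairs cannot go below 0.25, so it was not used. Precision is limited by the number of arrays. The model was tested on simulated data. Figures used matplotlib 3.10.9 in Python 3.11.15.

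The members and the 29 gene lists were chosen with earlier results of these data known. Genes named are Fip1l1, 10 fixed markers, the 15 largest rises and falls past the threshold with 1 sign in all pairs, and up to 6 members of each list; further list members are given to describe a list, and genes picked by their values are said to be so. Promoters came from RefSeq (GRCm38.p6).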

Additional observations from a re-analysis of the deposited data

How the results depend on the processing

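The replicate comparison rests on 3 pairs, and its counts depend on how the spread is estimated. The pairing by treatment matters most: with no replicate block by treatment (3 arrays against 3), 4 genes passed, 0 higher and 4 lower, with 0 calls in the formative epiblast, primitive endoderm and stress lists (1092 genes at an unadjusted p under 0.05). Without a variance trend 227 genes passed, 85 higher and 142 lower, and 2 stress genes. Leaving out 1 pair gave 198 to 314 genes (73 to 132 higher, 125 to 182 lower), 5 to 7 formative epiblast genes, 2 or 3 primitive endoderm genes and 2 to 5 stress genes. Without genes under the median level 478 genes passed but 0 primitive endoderm factors, since that filter removed Sox7, Gata6 and Sox17. A robust prior, median centring, repeated quantile normalization, a filter at the 25th percentile, all probe sets and an interaction term gave 344 to 473 genes, and the 335 that passed without distal chromosome 8 (an alternative chosen after seeing the data) were all among the 382. No named gene that passed changed direction under these settings. Among genes that did not pass in either fit, the log2 difference of some lay on both sides of 0 when 1 pair was left out: -0.028 to 0.14 for Bcl3, -0.28 to 0.13 for Cyp26a1, -0.15 to 0.024 for Tet3, -0.073 to 0.0051 for Hspa8, -0.14 to 0.0078 for Pou5f1, -0.025 to 0.11 for Zfp42, -0.16 to 0.046 for Etv4, -0.27 to 0.17 for Pim1, -0.22 to 0.061 for Dlk1, -0.061 to 0.016 for Dnmt3a, -0.017 to 0.65 for Amn, -0.059 to 0.45 for Foxf1, -0.26 to 0.0014 for Gli3, -0.24 to 0.027 for Zfp352, -0.24 to 0.034 for Dhrs3 and -0.15 to 0.15 for Rarb; with the interaction term Cyp26a1 was at 0.069. The interaction count moved to 59 after median centring, and without 1 pair it could not be tested. The depletion count was 1578 with no replicate block. The distal chromosome 8 median was 0.15 with dim genes included and 0.24 after repeated quantile normalization, and 0.21 to 0.23 without 1 pair; runs of 20 or 80 genes, also chosen after seeing the data, gave 0.23 and 0.22. No detection calls were used, so genes near the floor may be absent.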

Other observations

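Some further single genes were picked after their values were seen and describe these arrays only, not the groups they belong to. In the fixed germline list 1 of 10 genes passed, beside 2.50% of all genes tested. Sycp1 (-0.24) and Ddx4 (-0.21), which did not pass, lay on the other side of 0 from the germ cell genes that follow. Sohlh2, a factor of early germ cell differentiation, had log2 values of 7.77, 7.30 and 7.80 in replicate 2 (siRNA 2, siRNA 3 and mock), against 7.11, 6.60 and 7.23 in replicate 1, and rose by 0.64 (SE 0.09, limma adjusted p = 0.00963). The sets did not overlap for Sohlh2. Rec114, which helps form meiotic double-strand breaks, rose by 0.66, Gpat2, a germ cell acyltransferase of the piRNA pathway, by 0.77, and Khdc3 and Ooep, members of the subcortical maternal complex, by 0.53 and 0.37. Trap1a, an X-linked tumour antigen gene, rose by 0.33. Nfe2l2, the factor of the antioxidant response, rose by 0.31 (adjusted p = 0.0459) and Txnip, the thioredoxin-binding protein, by 0.59, most in the mock pair (0.82).

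Other genes picked in the same way fell. Igfbp3, an IGF-binding protein, had values of 7.55, 7.73 and 7.30 in replicate 2, against 8.24, 8.55 and 8.50 in replicate 1, and fell by 0.91 (SE 0.11, adjusted p = 0.00482). The hyaluronan synthase Has2 fell by 0.79, the Tead cofactor Vgll3 by 0.90, the calcium-binding protein S100a6 by 0.65 and the galectin Lgals1 by 0.49. Mycn fell by 0.42, Hmga2 by 0.44, Sox11 by 0.57 and the glycine decarboxylase Gldc by 0.42. The fixed lists nearest to these genes did not fall as groups. The neuroectoderm list had a median of -0.0024 and no calls among 15 genes, beside 2.50% of all genes tested. The parietal endoderm and matrix list had a median of 0.07, with Nid1 (0.41), Col4a1 (0.34) and Sparc (0.23) above 0 and not passing. Grhl1, an epithelial transcription factor, fell by 0.51 (adjusted p = 0.0452), while its relative Grhl2 differed by -0.13 (adjusted p = 0.505).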
